A study of Mus musculus with 4 samples.

Results

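The transcripts of the replication-dependent histone genes were examined in C2C12 cells, a mouse myoblast line, depleted of Fxr1. They were taken as all probes whose array gene name begins with Hist1h to Hist4h followed by a digit, the names of the 4 histone gene clusters, which gave 52 of the 55681 non-control probes and 48 genes. By the class of the encoded histone, these were 6 genes of linker histone H1, 15 of H2A (16 probes), 11 of H2B, 8 of H3 and 8 of H4 (11 probes). The siFxr1 cells had received an siRNA directed at exon 14 of Fxr1, which all its mRNAs contain, and the siControl cells a random siRNA of matching GC content. Both conditions were transiently transfected, and cells were analysed 48 hrs afterwards. Each condition was measured in experiments 1 and 2, on 4 one-colour arrays in all. Each experiment had a slide of its own that carried both conditions, so experiment and slide cannot be told apart.

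Replication-dependent histone genes supply the histones that package newly made DNA, and their transcripts are abundant in S phase and scarce outside it. Their mRNAs usually end in a conserved stem-loop bound by Slbp in place of a poly(A) tail, although some of these genes can also give polyadenylated transcripts, which are known from cells that leave the cell cycle. H2A, H2B, H3 and H4 form the core of the nucleosome, and H1 binds the linker DNA. The labelling kit is based on priming with oligo(dT), so the signal of a transcript without a poly(A) tail need not follow its amount. In bulk RNA, fewer cells in S phase and less histone RNA per cell cannot be told apart.

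The probes of 7 members reach into the stem-loop, and are shown because they locate the end of the processed mRNA within the transcript the array was designed on. The search was for GGC and any 3 bases, a loop of 4 bases, and the reverse complement of the first 6 bases, on the printed strand. The whole form was in 5 of the 52 probes (9.62%) and a part of at least 10 bases at a probe's edge in 2 more (3.85%), against 15 whole forms among all 55681 probes (0.0269%). Windows of 30 bases are printed 5′ to 3′ with the bases of the stem-loop in capitals.
Hist1h2ab: gaaagttaaccaaaacaaaGGCTCTTTTCA
Hist1h3a: aattaaccaaaGGCTCTTTTCAGAGCCaca
Hist1h3g: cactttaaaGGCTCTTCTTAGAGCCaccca
Hist1h3i: ataacaaaaGGCTCTTTTCAGAGCCccctc
Hist2h2bb: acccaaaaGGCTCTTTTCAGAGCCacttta
Hist2h2aa1: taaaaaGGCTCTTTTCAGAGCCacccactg
Hist1h2ae: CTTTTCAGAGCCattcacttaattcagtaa
The probes of Hist1h3a, Hist1h3g, Hist1h3i and Hist2h2bb ended 3 to 6 bases past the stem-loop and that of Hist1h2ab within it. The probes of Hist2h2aa1 and Hist1h2ae ran on for 38 and 48 bases beyond it. In the array's transcripts the stem-loop began between bases 462 and 537. On mm9, the probe of Hist1h2ab lies at chr13:23843392-23843451 on the plus strand and that of Hist2h2aa1 at chr3:96049949-96050008 on the plus strand. The probe of Hist1h2ae lies at chr13:23662489-23662548 on the minus strand.

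H2A genes are close copies, and 11 of the 52 probes, 7 of them for H2A, share a run of at least 25 bases with the probe of another member gene. The probes at the end of 3 H2A coding regions are shown because they could hybridise to each other's transcripts. They are printed 5′ to 3′ with the bases that differ from the Hist1h2af probe in capitals, 5 in each of the other 2 probes.
Hist1h2af: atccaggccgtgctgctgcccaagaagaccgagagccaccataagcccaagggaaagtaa
Hist1h2ak: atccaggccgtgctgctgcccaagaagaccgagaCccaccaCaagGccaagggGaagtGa
Hist1h2an: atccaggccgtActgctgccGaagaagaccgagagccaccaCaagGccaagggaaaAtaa
They lie at chr13:23626113-23626172 on the plus strand (Hist1h2af), chr13:21845304-21845363 on the minus strand (Hist1h2ak) and chr13:21878695-21878754 on the minus strand (Hist1h2an) of mm9. The values of these H2A genes are therefore uncertain as values of single genes.

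The 2 probes of Fxr1 checked the knockdown. On the brighter probe the normalized log2 signal was 13.84 in siControl and 10.15 in siFxr1 in experiment 1, and 13.71 and 10.77 in experiment 2. The log2 fold change was -3.31 (SE 0.29, adjusted p = 0.950 in limma) on this probe and -3.61 on the other. Of the 6 myoblast markers, 5 were well above background on all 4 arrays by the scanner software's mark, and Myf5 on 0 arrays. The markers of other cell types Thy1, Tcf21, Ptprc and Emr1 were on 0 arrays, Cd68 on 2, Pecam1 on 3, and Cdh5 and Pdgfra on 4. The RNA integrity number was 8 for siFxr1 in experiment 1 and 9 for the other samples. Between 45.4% and 52.9% of probes per array were well above background, and 0 spots were saturated.

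Histone transcripts were not called changed between siFxr1 and siControl, except for 2 dim probes in a fit of ratios. Without the experiment in the model, 0 of the 52 probes and 0 of all 55681 probes (0%) had a B value above 0, the log odds that a probe changed, or a Benjamini-Hochberg adjusted p under 0.05 (limma). At an unadjusted p under 0.05 there were 2 member probes and 2764 of all probes (4.96%). With the experiment as a block and a filter on dim probes, 0 members were called, against 354 of 25540 probes (1.39%). Unless stated, the SE and adjusted p of single genes between conditions are from the fit without the experiment. Their spread therefore includes the difference between the experiments. The 4 ratios of siFxr1 over siControl arrays, taken as observations, share arrays and are not independent, so their fit counts more observations than the 2 samples per condition. In that fit 2 members were called, against 1107 of 55681 probes (1.99%). These were Hist3h2ba and Hist3h2bb-ps, named after their values were seen, and both were not well above background on any array, so no fold is given for them. No member was at least 2-fold lower or 2-fold higher in siFxr1 in both experiments, against 1.71% and 1.94% of the 25540 probes bright enough for the filter, which asks that both arrays of at least 1 condition be well above background. With 2 arrays per condition, the smallest two-sided p of an exact permutation test is 0.333.

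**Figure D1:**
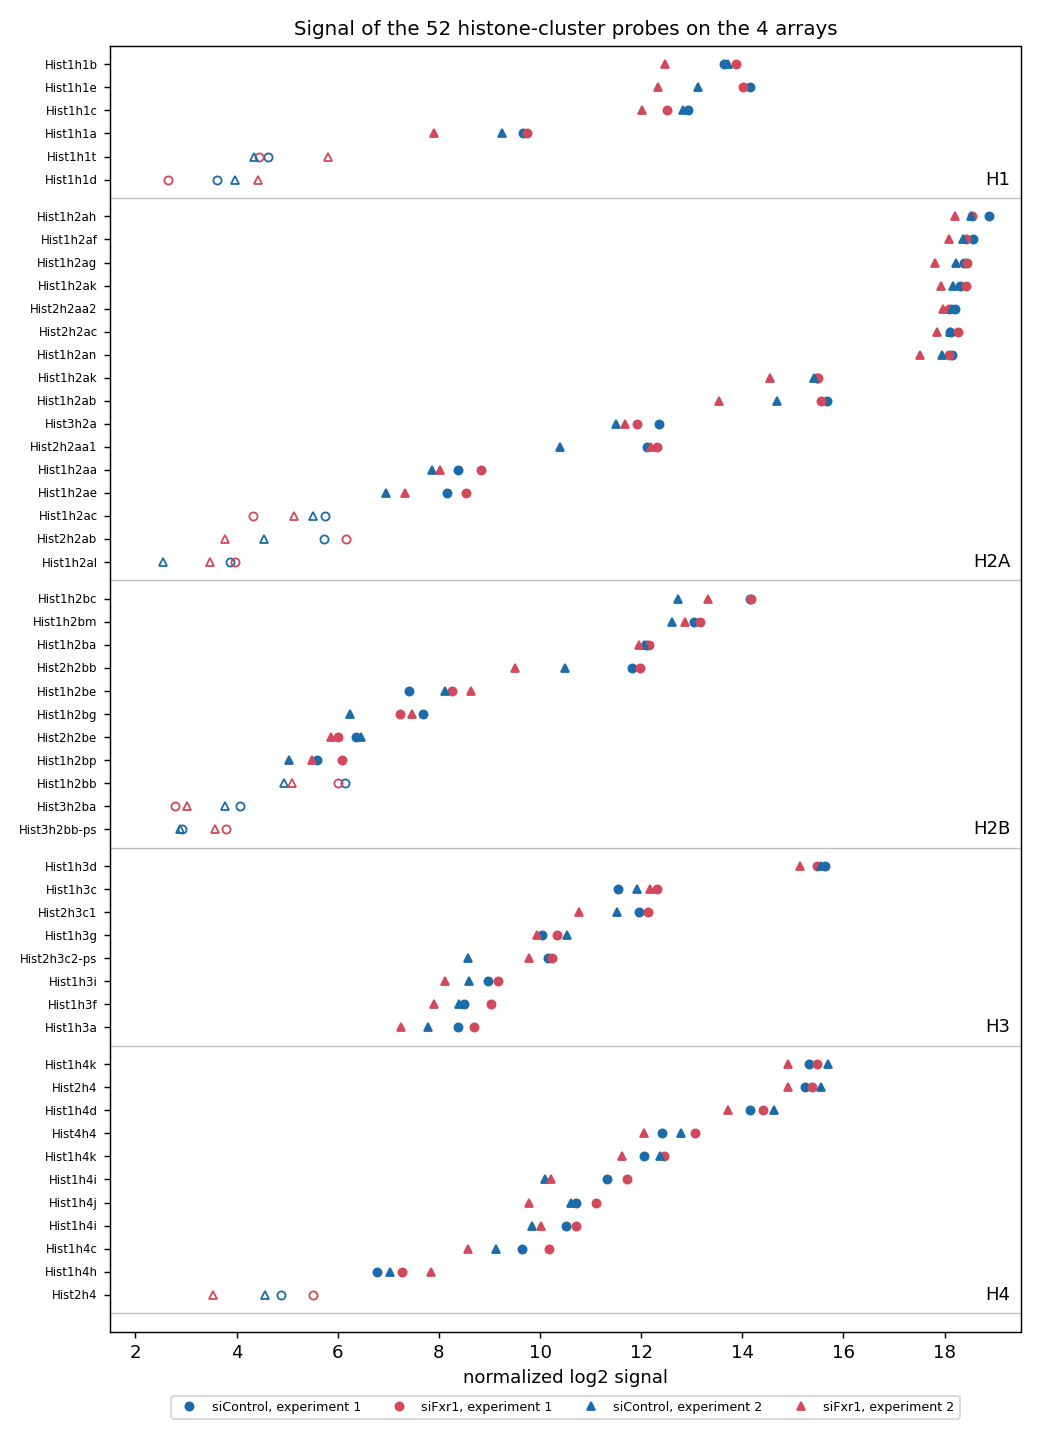
Normalized log2 signal of each of the 52 histone-cluster probes, ordered within each class by mean signal, with 1 symbol per array (blue siControl, red siFxr1, circles experiment 1, triangles experiment 2). Open symbols mark probes not well above background on all 4 arrays. The red triangle of siFxr1 in experiment 2 is the leftmost symbol for most bright probes.

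About as many histone genes took the same direction in both experiments as took opposite ones. By genes, each with its brightest probe, 11 were lower and 13 higher in siFxr1 in both experiments, 19 were above siControl in experiment 1 and below it in experiment 2, and 5 had the reverse order. Over all 52 probes, 11 were lower and 14 higher in siFxr1 in both experiments, 22 were above siControl in experiment 1 and below it in experiment 2, and 5 had the reverse order. Of the 45 member probes that passed this filter, 10 were lower in both experiments, against 31% of all such probes. Higher in both were 12, against 33.2%. Opposite directions were found for 20 that were above siControl in experiment 1 and below it in experiment 2, against 20.5% of all such probes, and for 3 with the reverse order, against 15.1%. Within experiment 1, 13 of the 45 were lower in siFxr1 (46.1% of all such probes), and within experiment 2, 30 were (51.5%). The other 7 member probes, of which 5 were dim on all arrays, are in the counts over 52. Over genes, the median difference on the log2 scale was 0.13 in experiment 1 and -0.35 in experiment 2, beside 0.04 and -0.02 over the 25540 probes. Over both experiments, the median log2 fold change by class was -0.49 for H1, -0.14 for H2A, 0.19 for H2B and -0.12 for each of H3 and H4. Without the siFxr1 array of experiment 2 it was 0.07, 0.17, 0.46, 0.48 and 0.41 in that order. Without the siControl array of experiment 2, that of H2B was -0.34. These fits had no term for the experiment, so with 1 array left out the difference between the experiments entered the fold change. Each experiment had 1 array per condition, so the difference between conditions within an experiment, and whether that difference itself differed between the experiments, could not be tested.

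**Figure D2:**
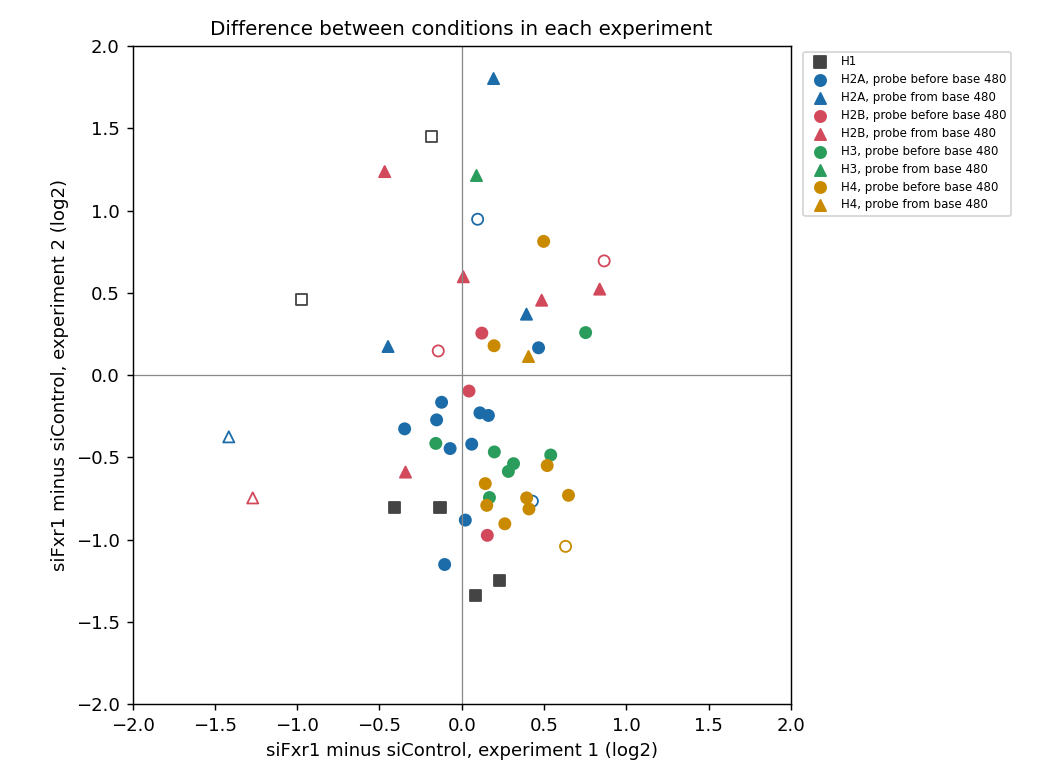
Difference between siFxr1 and siControl (log2) in experiment 1 (horizontal) and experiment 2 (vertical) for the 52 probes, coloured by histone class, with squares for H1, circles for core probes that start before base 480 of the transcript, triangles for those that start later, and open symbols for probes not well above background on all 4 arrays. To the right of and below the 0 lines lie 22 probes, 8 of them for H4.

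The linker histones Hist1h1a, Hist1h1b, Hist1h1c and Hist1h1e, the H1 genes well above background on all arrays, had their lowest signal in siFxr1 of experiment 2. Hist1h1b had a log2 signal of 13.64 in siControl and 13.87 in siFxr1 in experiment 1, and of 13.72 and 12.47 in experiment 2. Hist1h1a had 9.66 and 9.75 in experiment 1 and 9.24 and 7.90 in experiment 2. The siFxr1 array of experiment 2 thus stood below the other 3 for both genes, while their siControl and siFxr1 signals in experiment 1 lay within 0.23. Hist1h1c had 12.92 and 12.52 in experiment 1 and 12.83 and 12.02 in experiment 2, so that both siFxr1 values were below both siControl values. Hist1h1e had 14.15 and 14.01 in experiment 1 and 13.13 and 12.33 in experiment 2, and its conditions overlapped. The log2 fold changes were -0.63 (SE 0.76) for Hist1h1a, -0.51 (SE 0.57) for Hist1h1b, -0.61 (SE 0.25) for Hist1h1c and -0.47 (SE 0.79) for Hist1h1e, and the limma adjusted p of each was 0.975 or 0.976. The other H1 genes were dim. Hist1h1d was not well above background on any array, and Hist1h1t, a testis H1, only in 1 siFxr1 sample. The median over the 6 H1 genes was -0.16 in experiment 1 and -0.80 in experiment 2, and the first was above 0, at up to 0.099, with normexp, without background correction and in the authors' table. Without the siFxr1 array of experiment 2, the median log2 fold change of H1 was 0.07 in place of -0.49.

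The 7 H2A probes for the end of the coding region that share a run of at least 25 bases were the brightest of all members. Each of the 7 also shares a run of 20 bases with 1 or 2 probes that are not members. The differences of the 7 lay between -0.45 and 0.16 in either experiment. The probe of Hist2h2ab, which starts at base 332, was not among them and was well above background on only 2 arrays. Hist1h2af had a log2 signal of 18.57 in siControl and 18.42 in siFxr1 in experiment 1, and of 18.36 and 18.09 in experiment 2. Hist1h2ah had 18.88 and 18.53 in experiment 1 and 18.53 and 18.20 in experiment 2. In both genes siFxr1 was lower in each experiment, and the conditions overlapped. Hist1h2ag had 18.38 and 18.44 in experiment 1 and 18.23 and 17.81 in experiment 2. Its probe runs past the stop codon, and its array position spans more than the probe. The fold changes of these 3 genes were -0.21 (SE 0.21), -0.34 (SE 0.24) and -0.18 (SE 0.29), with limma adjusted p of 0.975 or 0.976. In the authors' table they were -0.069, -0.14 and -0.40. Hist1h2ab, whose probe ends in the stem-loop, had 15.67 and 15.56 in experiment 1 and 14.69 and 13.54 in experiment 2. It was lower in siFxr1 by 0.10 and by 1.15, with a log2 fold change of -0.63 (SE 0.89, adjusted p = 0.975 in limma). Hist2h2aa1, whose probe runs 38 bases past the stem-loop, went the other way. It had 12.12 and 12.32 in experiment 1 and 10.40 and 12.20 in experiment 2, so that the siControl array of experiment 2 stood below the other 3. Its log2 fold change was 1.00 (SE 0.69, adjusted p = 0.975 in limma), and 0.14 to 1.86 when 1 array was left out, the lowest without the siControl array of experiment 2. The array files place the much brighter Hist2h2aa2 probe just upstream, at chr3:96049837-96049896 on the plus strand. That probe, named after its values were seen, had 18.20 and 18.08 in experiment 1 and 18.14 and 17.97 in experiment 2. It was thus slightly lower in siFxr1 in both experiments. Whether the 2 probes read the same transcript was not tested. Over the 15 H2A genes the median difference was 0.06 in experiment 1 and -0.25 in experiment 2, and the first was below 0, down to -0.07, under those 3 settings and with the filter on dim probes, and 0.27 under 75th percentile scaling.

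H2B was the class with a median above 0 in both experiments, 0.04 and 0.25. The second was -0.0059 with normexp background correction, 0.016 without background correction and 0.014 in the authors' table. Hist1h2bc had a log2 signal of 14.15 in siControl and 14.16 in siFxr1 in experiment 1, and of 12.73 and 13.32 in experiment 2. Hist1h2be had 7.41 and 8.25 in experiment 1 and 8.11 and 8.63 in experiment 2, and Hist1h2bp 5.59 and 6.08, then 5.03 and 5.48. In Hist1h2be both siFxr1 values were above both siControl values, and in Hist1h2bc and Hist1h2bp the conditions overlapped. Its log2 fold change was 0.68 (SE 0.34), that of Hist1h2bp 0.47 (SE 0.35) and that of Hist1h2bc 0.30 (SE 0.67), with limma adjusted p between 0.975 and 0.978. In the authors' table Hist1h2be was at 0.41 and Hist1h2bp at 0.14. Hist1h2bm (13.04, 13.16, 12.61 and 12.86 in siControl and siFxr1 of experiment 1 and then of experiment 2) had a log2 fold change of 0.19 (SE 0.25, adjusted p = 0.975 in limma). Hist1h2ba, known as a testis H2B, had 12.10, 12.15, 12.05 and 11.95 in the same order, with a log2 fold change of -0.03 (SE 0.17, adjusted p = 0.996 in limma). Of the 11 H2B genes, 5 were higher and 2 lower in siFxr1 in both experiments. Of the 9 that passed the filter, 4 were higher and 1 lower in both, against 33.2% and 31% of all such probes.

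Of the 8 H3 genes, 7 were above siControl in experiment 1 and 6 below it in experiment 2, with medians of 0.24 and -0.48. All 8 passed the filter, and of all such probes 46.1% were lower in experiment 1 and 51.5% in experiment 2. Hist2h3c1 had a log2 signal of 11.97 in siControl and 12.14 in siFxr1 in experiment 1, and of 11.51 and 10.77 in experiment 2. Hist1h3d, the brightest, had 15.63 and 15.47, then 15.56 and 15.14. It was lower in siFxr1 in both experiments, and its conditions did not overlap. Hist1h3c had 11.55 and 12.30, then 11.91 and 12.17, with siFxr1 above siControl in both experiments and no overlap. Its probe shares 36 bases with that of Hist1h3f, so its values are uncertain as values of a single gene. Hist2h3c2-ps had 10.15 and 10.24, then 8.57 and 9.79, and like Hist2h2aa1 it was lowest in siControl of experiment 2. The log2 fold changes were -0.29 (SE 0.58) for Hist2h3c1, -0.29 (SE 0.20) for Hist1h3d, 0.51 (SE 0.21) for Hist1h3c and 0.65 (SE 0.66) for Hist2h3c2-ps, with limma adjusted p of 0.975 or 0.976.

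H4 showed the opposite directions of the experiments most evenly. All 8 genes, and all 11 of their probes, were higher in siFxr1 in experiment 1. In experiment 2, 6 of the 8 genes and 8 of the 11 probes were lower. Of the 10 H4 probes that passed the filter, 0 were lower in experiment 1, against 46.1% of all such probes. In experiment 2, 7 of the 10 were lower, against 51.5%. Some H4 probes share sequence, so they are not independent. The median over genes was 0.41 in experiment 1 and -0.69 in experiment 2. Hist1h4k had a log2 signal of 15.32 in siControl and 15.47 in siFxr1 in experiment 1, and of 15.69 and 14.90 in experiment 2. Hist2h4 had 15.24 and 15.38, then 15.55 and 14.89, and Hist1h4d 14.15 and 14.41, then 14.62 and 13.72. In these 3 genes siFxr1 of experiment 2 was the lowest array and siControl of experiment 2 the highest. Hist1h4h, a dimmer member, had 6.78 and 7.28, then 7.03 and 7.85, with both siFxr1 values above both siControl values. Log2 fold changes were -0.32 (SE 0.30) for Hist1h4k, -0.26 (SE 0.27) for Hist2h4, -0.32 (SE 0.36) for Hist1h4d and 0.66 (SE 0.29) for Hist1h4h, each with a limma adjusted p of 0.975. The second probe of Hist1h4k had the same directions, with differences of 0.39 and -0.75. Of the 2 probes of Hist1h4i, the one that starts at base 483 shares a run of 20 bases with 2 probes that are not members. The brighter probe of Hist1h4k shares such a run with 1 probe that is not a member.

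Within the core histones, the direction in experiment 2 differed between probes placed early and late in the array's transcripts. The probes were split at base 480, near the stem-loop, after their values were seen, so the split is a description with no test. Of the 34 probes that start before base 480 (early), 26 were lower in siFxr1 in experiment 2, and of the 12 that start later (late), 3 were, where 61.9% of all 55681 probes were. The median difference in experiment 2 was -0.46 before base 480 and 0.41 from there on. In experiment 1 the groups were closer, with 7 of 34 and 5 of 12 lower, against 50.3% of all probes, and medians of 0.17 and 0.05. Of those bright enough on each of the 4 arrays, 24 of 29 before base 480 and 1 of 10 after it were lower in experiment 2. The one was Hist2h2be, at 6.47 in siControl and 5.88 in siFxr1, named after its values were seen. Base positions are those of the array's design and need not be positions in the mRNA for every probe, since the probe of Hist1h3f, listed at base 409, shares 36 bases with that of Hist1h3c, listed at base 3. The probes of several genes in the first group share sequence, so they are not independent. Most late probes were for H2A or H2B, and nearly all probes of H3 and H4 were early. The median log2 signal was 12.02 over the early probes and 7.92 over the late ones. Position, class and brightness thus cannot be told apart here.

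**Figure D3:**
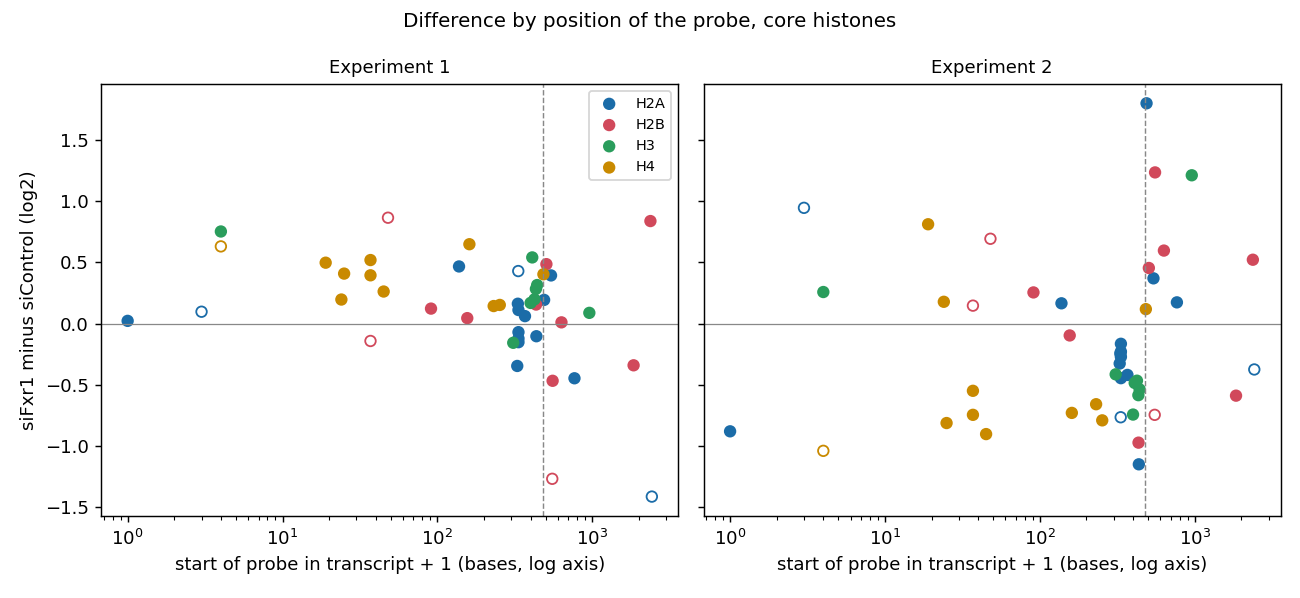
Difference between siFxr1 and siControl (log2) of the 46 core histone probes against the start of the probe in its array transcript (bases, log axis), in experiment 1 (left) and experiment 2 (right). Colours give the class, open symbols probes not well above background on all 4 arrays, and the dashed line base 480. In experiment 2, 26 of 34 probes left of the line lie below 0 and 9 of 12 right of it lie above 0.

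The early and late probes were mostly lowest on different arrays. Of the 34 early probes, 26 were lowest in siFxr1 of experiment 2, and of the 12 late probes, 8 were lowest in siControl of experiment 2. Among those well above background on all arrays, these counts were 24 of 29 and 8 of 10. The share over all probes was not computed, so whether this is particular to the histones was not tested. Hist1h2ae, with a probe that runs 48 bases past the stem-loop, had 8.15 in siControl and 8.55 in siFxr1 in experiment 1 and 6.96 and 7.33 in experiment 2. Hist2h2bb, with a probe that ends 6 bases past it, had 11.81 and 11.97, then 10.49 and 9.51. Both were lower in experiment 2 than in experiment 1 in each condition, but within experiment 2 siFxr1 was higher for Hist1h2ae and lower for Hist2h2bb. These genes were named after their values were seen.

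A poly(A) signal, searched as AATAAA or ATTAAA on the printed strand only, was in 3 of the 12 late core probes (25%), in 1 of the 34 early ones (2.94%) and in 13.7% of all probes. Of the late ones, Hist3h2ba was lower in siFxr1 in both experiments, but it was not well above background on any array. The late Hist1h4i probe shares a run of 20 bases with 2 probes that are not members. The early match, in Hist1h2ag, overlaps the stop codon. Hist1h2be, with a probe at chr13:23675610-23675669 on the minus strand of mm9, is shown with the signal in capitals. It was chosen because its probe was among those higher in siFxr1 in both experiments. As the choice used these values, it cannot show whether the signal goes with a direction.
Hist1h2be: gtactgttcattATTAAAgcattcctgatt
The letters are a match and not a mapped end of the transcript.

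Between the experiments, histone transcripts were mostly lower in experiment 2. Over all members, 36 of 52 probes were lower in experiment 2 in both conditions and 3 were higher in both, and of the 45 that passed the filter, 32 were lower in both, against 41.7% of all such probes. The median of experiment 2 minus experiment 1 over the early core probes was -0.15 in siControl and -0.66 in siFxr1, and over the late ones -1.02 in siControl and -0.19 in siFxr1. In limma with condition and experiment as terms, 0 of the 52 were called different between the experiments, against 664 of 55681 probes (1.19%), and 11 had an unadjusted p under 0.05, a share near the 20.1% of all probes. With dim probes left out of the fit, 7 of the 45 were called, a share near that of all such probes (4342 of 25540, 17%). These were Hist1h1e, Hist1h2ab, Hist1h2ae, Hist1h2bb, Hist1h2bc, Hist2h2bb and the late probe of Hist1h4i, with log2 differences from -1.89 (SE 0.37) in Hist2h2bb to -1.06 (SE 0.21) in Hist1h2bb and limma adjusted p from 0.0178 to 0.0365.

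**Figure D4:**
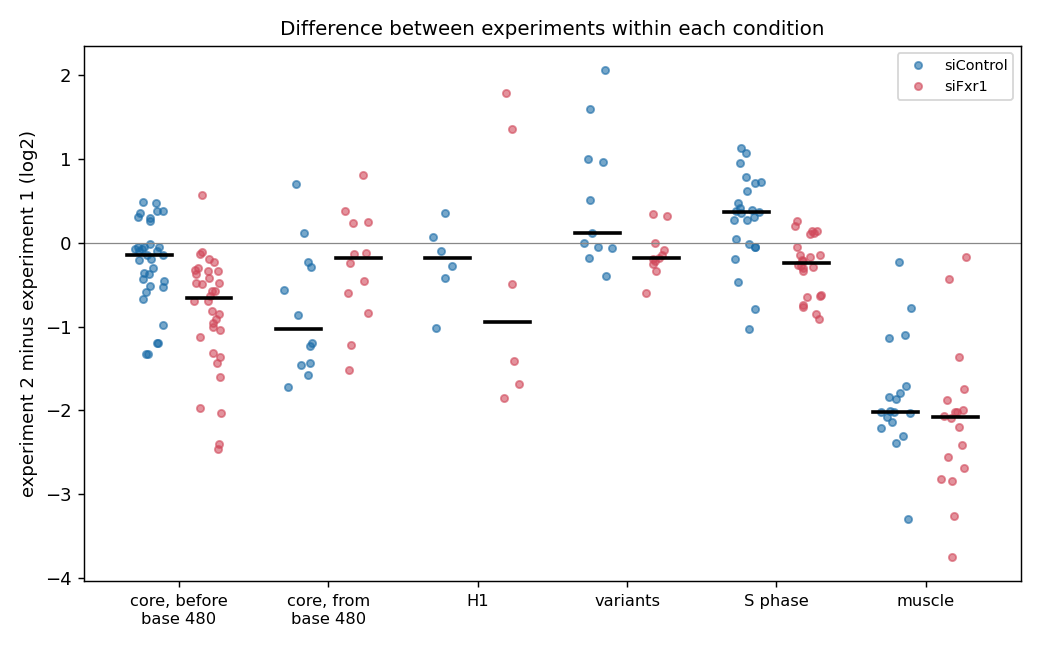
Experiment 2 minus experiment 1 (log2) within siControl (blue) and siFxr1 (red), with 1 point per probe for the core histones and H1 and 1 per gene for the lists of histone variants, S-phase DNA synthesis and muscle differentiation. Black lines are medians. The late core probes have the lower median in siControl (-1.02) and the early ones in siFxr1 (-0.66).

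Genes around the histone transcripts were read from lists of the pathway and the cell state, each with its brightest probe. Of 17 genes of histone mRNA synthesis and processing, 0 were called by limma without the block and 1, Lsm10 (-0.51, SE 0.15), in the fit of the 4 ratios. Of the 17, 6 were lower and 6 higher in siFxr1 in both experiments, and the medians were 0.04 and -0.12. Slbp, the stem-loop binding protein, had a log2 signal of 10.79 in siControl and 10.45 in siFxr1 in experiment 1, and of 11.83 and 10.91 in experiment 2, a log2 fold change of -0.63 (SE 0.47, adjusted p = 0.975 in limma). Casp8ap2, which is needed for histone transcription, had -0.57 (SE 0.16) and Zfp473, a part of the U7 processing machinery, 0.61 (SE 0.65). Slbp and Casp8ap2 were lower in siFxr1 in both experiments, and neither passed the test.

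The replication-independent variants, whose mRNAs are mostly polyadenylated, had 0 of 11 called by limma without the block and 1, H3f3b (-0.54, SE 0.15), in the fit of the 4 ratios. Of the 11, 5 were lower and 2 higher in both experiments, with medians of 0.04 in experiment 1 and -0.51 in experiment 2. H1fx had 8.93 in siControl and 8.62 in siFxr1 in experiment 1, and 10.99 and 8.41 in experiment 2, so that its siControl array of experiment 2 stood above the other 3. Its log2 fold change was -1.45 (SE 0.82), that of H1f0, a linker histone of non-dividing cells, -0.85 (SE 0.66), and that of H2afv -0.59 (SE 0.18), with a limma adjusted p of 0.975 for each.

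Of 24 genes of S-phase DNA synthesis, 15 were lower and 0 higher in siFxr1 in both experiments, and 22 were lower in experiment 2. Of all probes that passed the filter, 31% were lower and 33.2% higher in both experiments, and 51.5% were lower in experiment 2. Among the 24, Ccne2 was not well above background on any array, and it differed by -0.003 in experiment 2. The medians of the list were -0.08 and -0.68, and 0 of its genes were called by limma without the block. Chaf1a, a subunit of the factor that places new histones on DNA, was lower by 0.25 and 1.17, and its log2 fold change was -0.71 (SE 0.33). Mcm7 and Mcm3, subunits of the replicative helicase, had -0.70 (SE 0.33) and -0.69 (SE 0.23). The S-phase list and the early core probes were thus both lower in siFxr1 in experiment 2, and in experiment 1 the S-phase list had a median below 0 and the early core probes a median above 0. Of 18 muscle differentiation genes, 6 were lower and 6 higher in both experiments, with a median of -0.03 in experiment 2, and all 18 were lower in experiment 2 than in experiment 1 in both conditions, with medians of -2.01 in siControl and -2.08 in siFxr1. In limma with condition and experiment as terms, 2 of the 18 were called between the experiments over all probes, and 16 of the 18 with dim probes left out of the fit. Whether the state of the cultures had a part in the histone values was not tested.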

How the data were processed

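RNA of siFxr1 and siControl C2C12 cells was labelled with Cy3 and hybridised on 4 Agilent arrays. The labels gave each sample's condition and experiment, and none was left out. The authors deposited spot intensity values from Agilent Feature Extraction 10.7.3.1 without normalization between arrays, and a table of normalized intensity values, used as an alternative. The intensity after that software's background correction was quantile-normalized on the log2 scale over 59305 non-control spots and averaged per probe, with outlier spots set to missing. Fits used limma 3.58.1 in R 4.3.3 over all 55681 probes with condition as the only term. The study's methods name limma, quantile normalization, a mean over the ratios and a B value, and no model or adjusted p, so a fit of the 4 ratios, which share arrays, was run as an alternative. A probe was called at B above 0 or an adjusted p under 0.05, and was well above background where at least 0.5 of its spots carried that mark. The filter on dim probes kept 25540.

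Replicate numbers are experiments on shared slides by the labels, so they pair the samples, and the residuals of samples with the same number had a correlation of 0.71 over 25540 probes. The model with condition as the only term ignores this pairing. With the experiment as a block, the SE was smaller for some members and larger for others. Nothing in the labels separates cultures within a condition beyond the experiment, and p-values measure the spread between these samples.

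Positions on mm9 are as the array files give them, and strand is the order of its coordinates. RefSeq's GRCm38.p6 table, used for names only, matched 50 of the 52 probes, and the array's names were kept. Named in each class were the 3 brightest genes and the 2 with the largest fold change among those well above background on all arrays, up to 3 genes by size of change from each list, and Fxr1. The members and lists were chosen with earlier results of these data known. On simulated data the noise was reset to the fit's own moderated SD after a first setting failed, so that run checks the code and not the fit, and in it the model without the experiment did not call the changes put in.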

Additional observations from a re-analysis of the deposited data

How the results depend on the processing

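Counts of members called between siFxr1 and siControl stayed at 0 under 75th percentile scaling, normexp, no background correction, the authors' table, the filter, the replicate block, the block with the filter and without each array in turn, and were 2 with the 4 ratios as observations. Over all probes the count was 0 in the model without the block, 354 with the replicate block and filter on dim probes and 1107 with the ratios. The block alone changed no call among the members. The knockdown of Fxr1 passed the test with the block and filter (-3.31, limma adjusted p = 0.0173) and with the ratios, which share arrays (limma adjusted p = 0.0257).

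Leaving out each array in turn gave median log2 fold changes from -1.03 to 0.072 for H1, -0.30 to 0.17 for H2A, -0.34 to 0.46 for H2B, -0.49 to 0.48 for H3 and -0.57 to 0.41 for H4. These fits had no term for the experiment, so with an array left out the difference between the experiments entered the values. Single genes turned direction in the same way, with ranges of -1.55 to 0.30 for Hist1h1a, -1.21 to 0.19 for Hist1h1b, -1.31 to 0.38 for Hist1h1e, -1.64 to 0.39 for Hist1h2ab, -0.49 to 0.13 for Hist1h2ag, -0.12 to 0.072 for Hist1h2ba, -0.41 to 1.02 for Hist1h2bc, -0.029 to 0.41 for Hist1h2bm, -0.97 to 0.40 for Hist2h3c1, -0.14 to 1.44 for Hist2h3c2-ps and -0.67 to 0.025 for Hist1h4d. Among these genes, Hist1h1e, Hist1h2ab, Hist1h2bc, Hist1h2bm and Hist2h3c2-ps had the same direction within both experiments when all arrays were kept. The named genes outside this list of ranges kept their sign, with Hist2h2aa1 from 0.14 to 1.86, Hist1h1c from -0.85 to -0.36, Hist1h2af from -0.38 to -0.049 and Hist1h4k from -0.60 to -0.035 as examples. Over the scaling and background settings, 14 of the 22 named histone genes moved by over 1.5 times, among them Hist1h2af (-0.21 to -0.063), Hist1h2ag (-0.40 to -0.077), Hist1h2ah (-0.34 to -0.14), Hist1h2bp (0.14 to 0.54) and Hist1h4h (0.36 to 0.73), and Hist1h2ba was at 0.00072 under 75th percentile scaling.

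Within experiment 1, the H1 median was 0.055 with normexp, 0.099 without background correction and 0.097 in the authors' table. The H2A median was -0.055, -0.060 and -0.063 in the same order and -0.070 with the filter, and 0.27 under 75th percentile scaling. Within experiment 2, the H2B median was -0.0059, 0.016 and 0.014 in that order. The early and late medians in experiment 2 kept their signs under every setting run, and the late one was between 0.17 and 0.45. Split at base 540, chosen after seeing the data as were the other settings within an experiment, the late median in experiment 1 was -0.34. Under 75th percentile scaling the median of all probes in experiment 1 was 0.11, and 1 of the 34 early probes in place of 7 was lower there. Members called between the experiments numbered 0 in the model over all probes, where 1.19% of all probes were called, and 7 with the filter, where 17% were. They numbered 5 under 75th percentile scaling, 6 with normexp, 6 without background correction and 7 in the authors' table. The share of all probes under these settings was not computed, so whether these counts are particular to the histones was not tested. The cause of these shifts was not tested. The number of arrays limits the precision.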
